A study of Mus musculus with 10 samples.

Results

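Oxidative phosphorylation is the chain of protein complexes in the inner mitochondrial membrane that oxidises NADH and succinate and makes ATP. Its nuclear-encoded genes were taken here by symbol, as the probe sets with a single gene symbol beginning with Ndufa, Ndufb, Ndufc, Ndufs or Ndufv, Uqcr, Cox4 to Cox8 or Atp5, together with Sdha, Sdhb, Sdhc and Sdhd. The rule found 89 of the 19933 genes tested. By symbol, 36 belonged to complex I, 4 to complex II, 8 to complex III, 16 to complex IV and 17 to complex V, which made 81 subunits. The other 8 were assembly and related factors, namely Ndufaf1 to Ndufaf7 and Cox7a2l. No measured value entered the rule, except that the probe set of highest mean stood for a gene with several. The members were nevertheless chosen with earlier results of these data known, so the list carries no test.

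Livers of 5 wild-type (WT) and 5 knockout (KO) male mice were measured, 1 mouse per Affymetrix Mouse Gene 1.0 ST array. The KO mice were Rev-erb alpha -/-, that is, they lacked the nuclear receptor encoded by Nr1d1, on a C57Bl/6 background after at least 7 generations of backcrossing. The WT mice were purchased C57Bl/6 animals, so origin and genotype cannot be told apart. Both groups ate normal chow under a cycle of 12 h light and 12 h dark. Livers were taken at ZT10, late in the light phase, at an age of 10 to 12 weeks. Replicate numbers are names only, given in the order of deposit.

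Complex I takes electrons from NADH and complex II takes them from succinate. Both pass them through ubiquinone to complex III, which hands them by way of cytochrome c to complex IV, where oxygen is reduced. Complexes I, III and IV pump protons, and complex V uses the proton gradient to make ATP. Most subunits are encoded in the nucleus and a few in mitochondrial DNA, and dedicated assembly factors, which are not part of the finished enzymes, build each complex. Hepatocytes are rich in mitochondria. Rev-erb alpha represses transcription together with the corepressor NCoR and the deacetylase Hdac3.

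Transcript levels of most subunits differed little between WT and KO livers. Values are log2 intensities, and differences are KO minus WT on that scale with the standard error (SE) of limma and a p adjusted over all genes tested. None of the 81 subunits passed an adjusted p under 0.05, in either direction. Of all 89 members, 0 rose and 1, the assembly factor Ndufaf4, fell, which is 1.12% of members. Over all genes tested 5.61% were called, with 3.17% higher and 2.44% lower in KO. At an unadjusted limma p under 0.05 there were 10 of 81 subunits (8 higher and 2 lower, 12.3%), against 3461 of all genes (17.4%). When the arrays were quantile normalized, 3 members were called higher (Ndufa9, Ndufb8 and Ndufaf1) and 1 lower (Ndufaf4), or 4.49% of members against 6.29% of all genes.

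The sizes of the differences were small. The median difference was 0.02 over the members (0.00788 without WT replicate 3 and 0.0299 without WT replicate 2) and 0.01 over all genes, and the median size regardless of sign was 0.04 and 0.06. In 72 of 89 members the difference was smaller than 0.1. For 80 of 89 members the whole 95% interval of the difference lay within 1.2-fold in either direction, and for all 89 it lay within 1.5-fold. Among all 19933 genes 14446 had an interval within 1.2-fold and 19084 within 1.5-fold. The interval that reached lowest was that of Ndufaf4, at -0.48, and the one that reached highest was that of the complex I subunit Ndufb3, at 0.41. These intervals are those of bulk liver RNA, in which fewer cells of a type and less RNA per cell cannot be told apart.

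**Figure D1:**
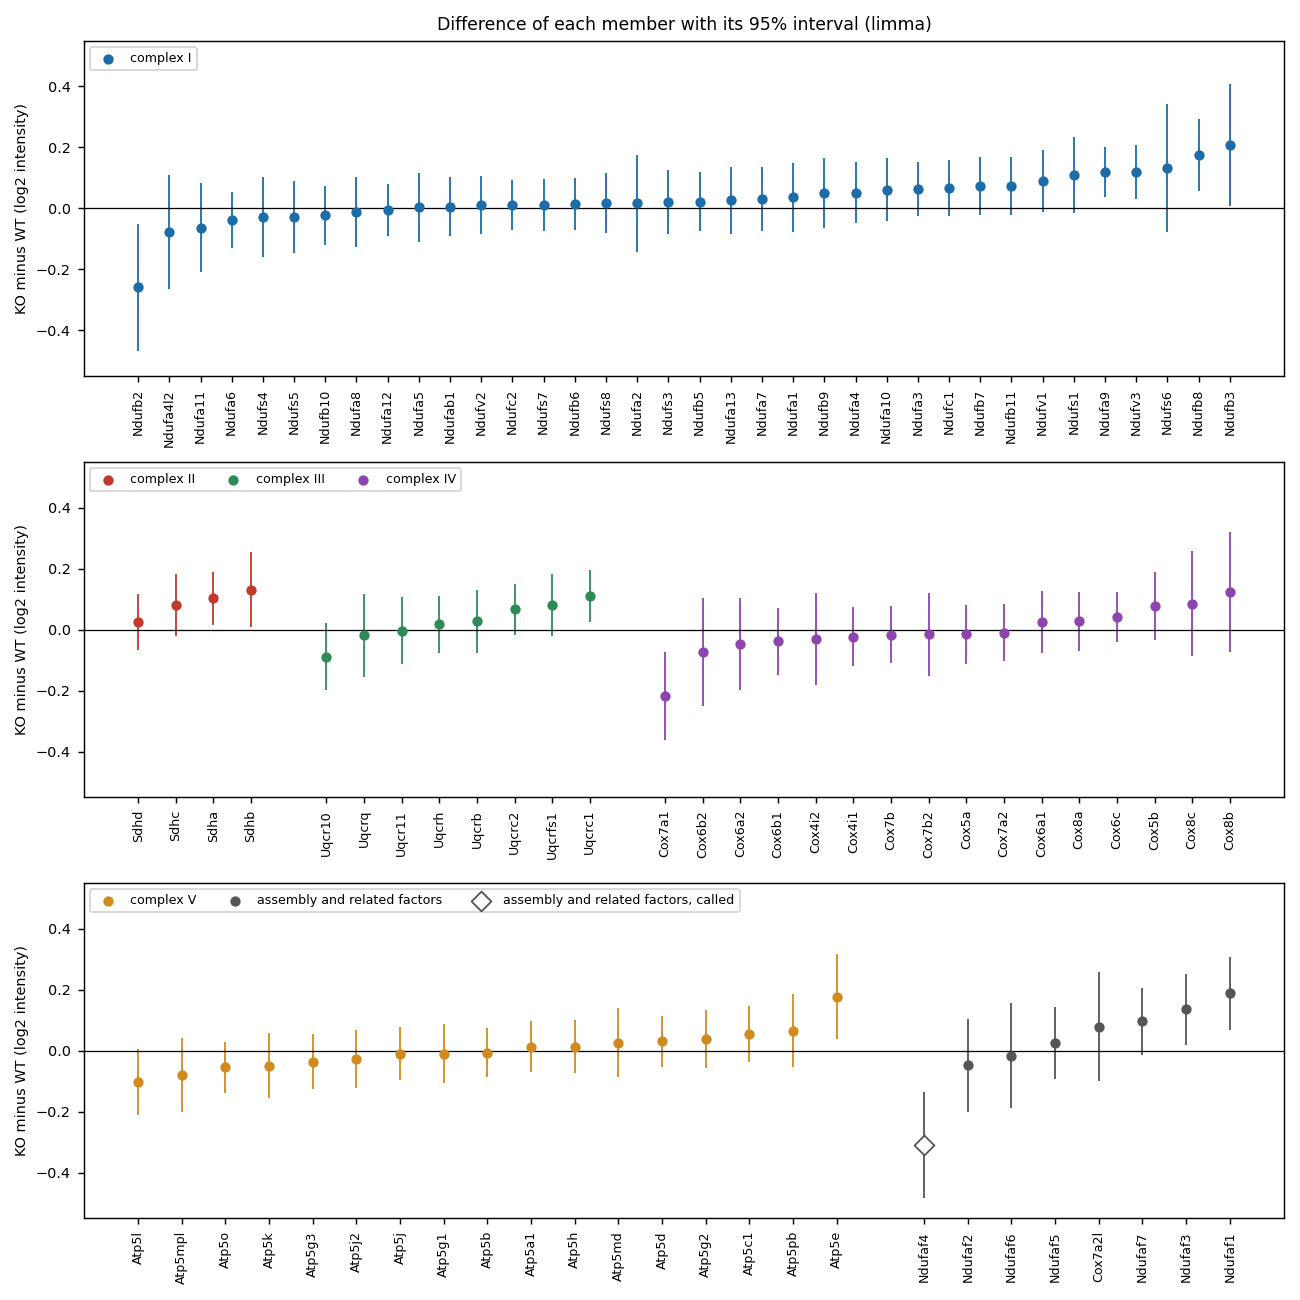
KO minus WT difference of each of the 89 members in log2 intensity (vertical axis), with the 95% interval of limma as a bar, grouped and coloured by complex. The points lie between -0.31 and 0.21, and the open diamond marks Ndufaf4, the only member called.

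The members also varied little from mouse to mouse. The median SD within genotype was 0.0612 over the members and 0.103 over all genes. The members' median level was 10.82. Among the 1533 genes at or above that level the median SD was 0.0744, and among the 45 members at or above it the median SD was 0.0488. The median size of a called difference among all genes was 0.37 and the smallest was 0.15, a size that 82 of 89 members did not reach.

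The assembly and related factors held the only called member. Ndufaf4, an assembly factor of complex I, read 9.91, 9.96, 9.67, 9.54 and 9.67 in the 5 WT livers and 9.54, 9.41, 9.31, 9.52 and 9.41 in the 5 KO livers. The lowest WT liver and the highest KO liver were equal to 2 decimals, and the other KO livers lay below all WT livers. Ndufaf4 fell by 0.31 (SE 0.080, adjusted p = 0.0428), a 1.24-fold decrease, with means of 9.75 ± 0.18 and 9.44 ± 0.091 (SD, n = 5 each). The call did not hold when any single array other than WT replicate 4 was left out, with adjusted p up to 0.105 and differences of -0.36 to -0.26. It also missed the threshold with array medians centred (adjusted p = 0.0596) and with array weights (0.0512), and over all 18 alternatives the adjusted p ran from 0.0162 to 0.189.

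Ndufaf1, another complex I assembly factor, lay on the other side. Its WT livers read 10.20, 10.09, 9.97, 10.15 and 10.19, and its KO livers read 10.24, 10.26, 10.29, 10.35 and 10.39. All 5 KO livers were above all 5 WT livers, yet the difference of 0.19 (SE 0.055) had adjusted p = 0.0689, and it passed only when the arrays were quantile normalized (adjusted p = 0.0205, with up to 0.222 under the other alternatives). Ndufaf3, which works with Ndufaf4, differed by 0.14 (adjusted p = 0.198), and its groups overlapped. The remaining factors, Ndufaf2, Ndufaf5, Ndufaf6, Ndufaf7 and Cox7a2l, differed by -0.05 to 0.10. Cox7a2l, a factor of respiratory supercomplexes, had the widest spread of any member within the KO livers (SD 0.18). Its KO replicate 3 read 9.52 and its other KO livers read 9.13, 9.15, 9.14 and 9.37, and without that array its difference went from 0.08 to 0.02.

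The promoters of Ndufaf4 and Ndufaf1 are printed because short elements of factors that drive respiratory genes could be looked for in them. Both run from 250 bases before to 50 bases after the RefSeq gene start, on the strand of the gene, in assembly GRCm38.p6. The Ndufaf4 promoter lies at chr4:24897833-24898132 on the plus strand and the Ndufaf1 promoter at chr2:119662785-119663084 on the minus strand. Capitals mark matches to the NRF1 element GCGCATGC in Ndufaf4 and to the ETS element CCGGAAG in Ndufaf1.
Ndufaf4: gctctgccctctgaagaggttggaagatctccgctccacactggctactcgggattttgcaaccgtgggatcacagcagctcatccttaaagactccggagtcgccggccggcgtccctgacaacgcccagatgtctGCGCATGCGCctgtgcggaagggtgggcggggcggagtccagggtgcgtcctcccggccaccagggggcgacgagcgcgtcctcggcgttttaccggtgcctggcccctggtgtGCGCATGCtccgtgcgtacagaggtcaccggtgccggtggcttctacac
Ndufaf1: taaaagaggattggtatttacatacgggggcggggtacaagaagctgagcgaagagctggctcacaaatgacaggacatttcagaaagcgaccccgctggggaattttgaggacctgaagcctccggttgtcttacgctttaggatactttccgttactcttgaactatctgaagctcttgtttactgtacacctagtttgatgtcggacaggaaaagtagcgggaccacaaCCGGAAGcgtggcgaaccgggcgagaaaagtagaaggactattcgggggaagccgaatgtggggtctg
In Ndufaf4 the NRF1 letters begin at -113 and, overlapping on the other strand, at -111, and again at 2, where 1 is the first transcribed base. In Ndufaf1 the ETS letters begin at -18.

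Elements were searched on both strands in the 73 of 89 members that had a promoter in the table, against 15559 tested genes. GCGCATGC, the element of nuclear respiratory factor 1, was in 16.4% of member promoters and in 4.29% of those of all tested genes. The 12 members with it included Ndufa6, Ndufa8, Sdhb, Uqcrc1 and Cox6a1. CCGGAAG, bound by ETS factors such as GABP, was in 24.7% and 13.6%. AAGATGGC, the YY1 element, was in 13.7% and 3.77%, and Ndufa9 and Ndufb8 were among the 10 members with it. AAGGTCA, the element of estrogen-related receptors, was in 9.59% and 4.48%. TAGGTCA, which Rev-erb and ROR receptors share, was in 4.11% and 2.64%, and the 3 members were Cox7b, Ndufa11 and Ndufb10. Those 3 differed between genotypes by -0.02, -0.06 and -0.02. AAGGTCA and TAGGTCA share all letters but the first, and a match is a description of the sequence only.

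Complex I transcripts lay slightly above WT in most cases. The difference was above 0 for 27 of 36 genes, where 54.1% of all genes were above 0, with a median of 0.02 and 0 genes called (limma). At an unadjusted p under 0.05 there were 5, of which 4 were higher, and that share of 13.9% was below the 17.4% of all genes. The median was 0.00972 without WT replicate 3 and 0.0325 without WT replicate 2. Ndufa9, an accessory subunit at the base of the matrix arm, read 11.09, 11.07, 11.07, 11.06 and 11.07 in WT and 11.16, 11.23, 11.17, 11.19 and 11.20 in KO. The genotypes were fully apart, and the spread was small in both (SD 0.012 and 0.027). The difference was 0.12 (SE 0.038, adjusted p = 0.0946), and over the alternatives the adjusted p ran from 0.0465, after quantile normalization, to 0.239.

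Ndufb8, a subunit of the membrane arm, read 10.01, 10.06, 9.93, 9.95 and 9.84 in WT and 10.08, 10.19, 10.08, 10.23 and 10.08 in KO. The groups met without crossing, and the difference was 0.18 (SE 0.054, adjusted p = 0.0867, from 0.0493 after quantile normalization to 0.222 over the alternatives). Ndufv3, a small subunit of the NADH-oxidising module, read 9.34, 9.33, 9.27, 9.30 and 9.38 in WT and 9.49, 9.43, 9.42, 9.45 and 9.43 in KO, a difference of 0.12 (adjusted p = 0.119). With Ndufa9, Ndufb8, Ndufv3, Sdha, Uqcrc1, Uqcrc2 and Ndufaf1, 7 of 89 members had every KO liver above every WT liver, and 1, Atp5l, had every KO liver below. Over all genes 3.99% were fully apart upward and 3.02% downward.

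The medians of the complex I modules lay between 0.01 and 0.09, and none of their genes was called. The NADH-oxidising module had a median of 0.09, with 6 of 7 genes above 0. The 4 measured genes of the ubiquinone-binding module had a median of 0.01, and the 25 membrane arm and accessory genes one of 0.03. The largest differences within complex I, chosen after their values were seen, were of Ndufb2 and Ndufb3, 2 accessory subunits of the membrane arm. Ndufb2 read 8.26, 8.26, 8.14, 8.68 and 8.63 in WT and 8.20, 8.13, 8.14, 8.10 and 8.11 in KO, a difference of -0.26 (SE 0.096, adjusted p = 0.166). Its WT replicates 4 and 5 stood above the other 8 livers. Ndufb3 differed by 0.21 (SE 0.093, adjusted p = 0.27).

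Ndufs6, a subunit of the NADH-oxidising module, had the widest spread among WT livers (SD 0.24). It read 9.80 in WT replicate 5 and 10.31 to 10.37 in the other WT livers, and its KO livers read 10.33 to 10.42. Its difference of 0.13 (adjusted p = 0.576) was 0.02 without that array.

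**Figure D2:**
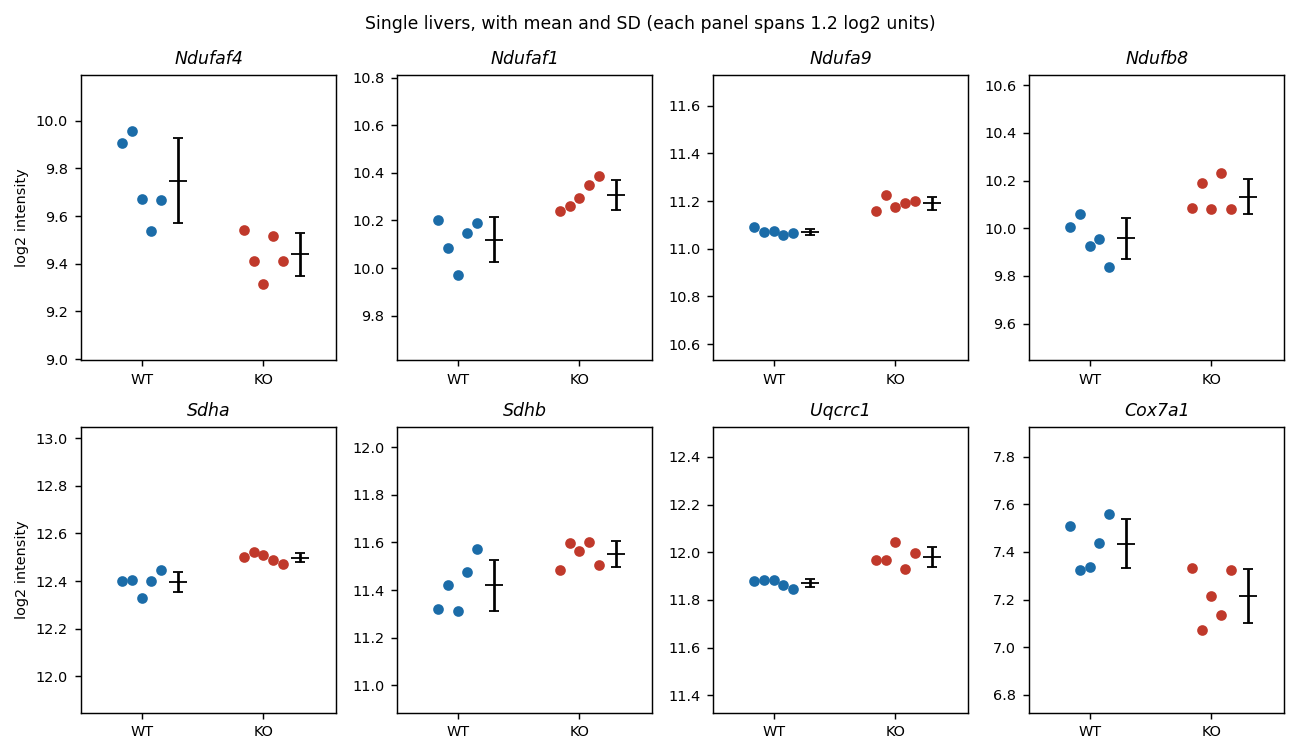
Log2 intensity (vertical axis, 1 scale length in every panel) of 8 members in each WT and KO liver (points), with mean and SD as bars. The groups of Ndufaf4 meet at 9.54, those of Ndufaf1, Ndufa9, Ndufb8, Sdha and Uqcrc1 do not overlap, and those of Sdhb and Cox7a1 do.

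All 4 genes of complex II, the succinate dehydrogenase of the citrate cycle, had a difference above 0, with a median of 0.09. None was called by limma, and 2 had an unadjusted p under 0.05 (50% of 4 genes, against 17.4% of all genes). Sdha, the flavoprotein that holds the succinate site, read 12.40, 12.40, 12.33, 12.40 and 12.45 in WT and 12.50, 12.52, 12.51, 12.49 and 12.47 in KO. Its groups did not overlap, and its difference was 0.10 (SE 0.040, adjusted p = 0.188). Sdhb, the iron-sulfur subunit, read 11.32, 11.42, 11.31, 11.48 and 11.57 in WT and 11.48, 11.60, 11.56, 11.60 and 11.51 in KO. The highest WT liver lay among the KO livers, and the difference was 0.13 (SE 0.057, adjusted p = 0.253). The membrane anchors Sdhc and Sdhd differed by 0.08 (adjusted p = 0.447) and 0.03 (0.860).

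In complex III the differences were above 0 for 5 of 8 genes, with a median of 0.02, or 0.00828 and 0.0101 without KO replicate 2 or 4, and 0.044 and 0.0355 without KO replicate 5 or WT replicate 2. None was called by limma, and 1 had an unadjusted p under 0.05 (12.5%, against 17.4% of all genes). Uqcrc1, a core protein of the matrix side, read 11.88, 11.88, 11.89, 11.86 and 11.85 in WT and 11.97, 11.97, 12.04, 11.93 and 12.00 in KO, a difference of 0.11 (SE 0.040, adjusted p = 0.154). Its groups were apart, as were those of the other core protein Uqcrc2, at 12.73 to 12.80 in WT and 12.82 to 12.85 in KO (difference 0.07, adjusted p = 0.429). The small subunit Uqcr10 differed by -0.09 (adjusted p = 0.422), with overlap. The Rieske iron-sulfur protein Uqcrfs1 differed by 0.08 (adjusted p = 0.436).

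In complexes IV and V the differences lay on both sides of 0. In complex IV 6 of 16 genes had a difference above 0, with a median of -0.02. In complex V 8 of 17 did, with a median of -0.01, and both medians took the other sign when single arrays were left out. That of complex IV was 0.00445 without KO replicate 4 and 0.00216 without WT replicate 5, and that of complex V was 0.000455 to 0.00687 without KO replicate 3 or WT replicate 1, 2 or 3. Neither complex held a called gene. Each had 1 gene at an unadjusted limma p under 0.05 (6.25% and 5.88%, against 17.4% of all genes). The complex IV genes include Cox4i2, Cox6a2, Cox6b2, Cox7a1, Cox7b2, Cox8b and Cox8c, isoforms of other tissues. Those had 10-array means of only 4.88 to 7.69, where array medians were 7.28 to 7.37. Ndufa4 is named as a complex I gene but its product is assigned to complex IV, and moving it left 26 of 35 and 7 of 17 genes above 0.

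In complex V, Atp5e, the epsilon subunit of the F1 head, read 9.10, 9.23, 9.05, 9.07 and 8.88 in WT and 9.19, 9.27, 9.15, 9.27 and 9.35 in KO. The groups overlapped, and the difference was 0.18 (SE 0.064, adjusted p = 0.154). The catalytic subunit Atp5b read 13.41 to 13.45 in WT and 13.41 to 13.44 in KO. Its difference of -0.01 had a 95% interval of -0.09 to 0.07. Atp5l, subunit g of the membrane part, read 10.79 to 10.88 in WT and 10.57 to 10.79 in KO without overlap, a difference of -0.10 (adjusted p = 0.315). It was -0.07 without KO replicate 4 and -0.04 as the mean of the 5 probe sets of Atp5l, whose other sets ran from -0.05 to 0.07. Atp5mpl, a small membrane subunit, differed by -0.08 (adjusted p = 0.565). The F1 genes had a median of 0.03, the c ring genes -0.01 and the stalk and membrane genes -0.03.

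Several subunits exist as tissue isoforms, and 0 of 18 genes on the isoform list were called. At an unadjusted limma p under 0.05 there was 1 (5.56%, against 17.4% of all genes). That gene was Cox7a1, the heart and muscle form of subunit VIIa. It read 7.51, 7.33, 7.34, 7.44 and 7.56 in WT and 7.33, 7.07, 7.21, 7.14 and 7.32 in KO, a difference of -0.22 (SE 0.066, adjusted p = 0.0832). Only KO replicate 1 lay above the lowest WT liver. Its liver counterpart Cox7a2 differed by -0.01 (95% interval -0.10 to 0.08). Of 6 muscle markers 0 were called (0 at an unadjusted limma p under 0.05), and their summed intensity was 778 to 930 in WT and 783 to 939 in KO. For scale, the median intensity of a single probe set was 156 to 165 across arrays. How small a change in muscle RNA such levels could show was not tested.

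The other pairs did not separate the genotypes. Cox4i1, the usual form of subunit IV, differed by -0.02 and Cox4i2, the form known from lung, by -0.03. For subunit VIa the liver form Cox6a1 differed by 0.02 and the muscle form Cox6a2 by -0.05. For subunit VIb the common form Cox6b1 differed by -0.04 and the testis form Cox6b2 by -0.07. Cox7b and its testis form Cox7b2 both differed by -0.02, and Cox7b2 was under the lower quartile on all 10 arrays. For subunit VIII the common form Cox8a differed by 0.03, the muscle and fat form Cox8b by 0.12 (adjusted p = 0.589) and the testis form Cox8c by 0.08. Ndufa4 differed by 0.05 and Ndufa4l2, a form induced by low oxygen, by -0.08. Atp5g1, Atp5g2 and Atp5g3, which encode the same mature c subunit, differed by -0.01, 0.04 and -0.04.

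The complex IV isoforms of other tissues and Ndufa4l2, 8 genes in all, were set against array spread. WT replicate 1 and KO replicates 4 and 5 had the widest interquartile ranges of all arrays. The median deviation of these isoforms from their own 10-array means was -0.18, -0.16 and -0.09 in those 3, against -0.0012 to 0.11 in the other 7. In 3 of the 8, Cox4i2, Cox6b2 and Ndufa4l2, the same 3 arrays were the lowest, and in 4 others 2 of the 3 lowest arrays were among them. Cox7a1 followed them only in part. Against its 10-array mean of 7.33, WT replicate 1 read 7.51, KO replicate 4 read 7.14 and KO replicate 5 read 7.32. Without those 3 arrays Cox4i2 differed by 0.05, Cox6a2 by 0.004 and Cox6b2 by -0.04 (-0.03, -0.05 and -0.07 with all arrays). Cox7b2 differed by -0.03, Cox8b by 0.18, Cox8c by 0.12 and Cox7a1 by -0.21 (-0.02, 0.12, 0.08 and -0.22 with all arrays). None of them was called by limma. Beyond this refit, the part of these arrays in the isoform differences was not tested.

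Taken liver by liver, complex II was the only complex whose median separated the genotypes. The median deviation of its 4 genes was -0.066 to -0.015 in WT livers and 0.023 to 0.070 in KO livers, with means of -0.038 ± 0.025 and 0.038 ± 0.019 (SD, n = 5 each). For complex I the means were -0.018 ± 0.029 and 0.020 ± 0.0084, and 4 of 5 KO livers lay above the highest WT liver. For complex III they were -0.025 ± 0.025 and 0.022 ± 0.016, again with 4 of 5. Complex IV and complex V overlapped widely. Complex IV was lowest in WT replicate 1 at -0.044 and in KO replicates 4 and 5 at -0.031 and -0.048, the arrays of widest interquartile range. The medians carry no test, as genes of a complex share their arrays.

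**Figure D3:**
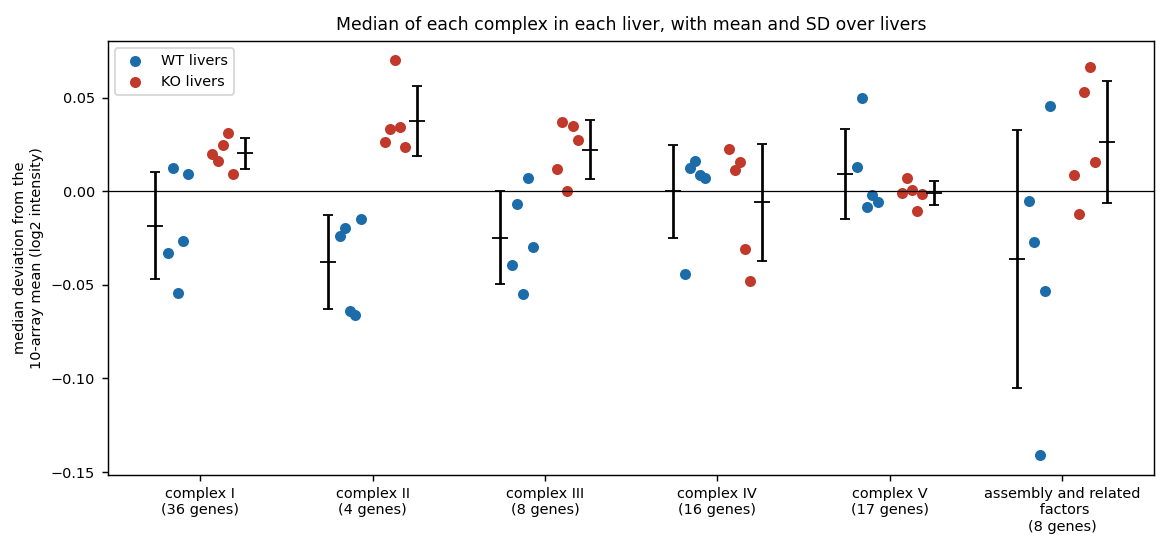
Median deviation of the genes of each complex from their own 10-array means in log2 intensity (vertical axis), for each WT and KO liver (points), with mean and SD over livers as bars. The complex II points do not overlap, with WT at -0.066 to -0.015 and KO at 0.023 to 0.070, while the other groups overlap.

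Some genes that surround the chain passed the test. Of 21 measured electron carriers and feeders 2 rose and 1 fell, or 14.3% called against 5.61% of all genes. The name is loose, as the 21 include ubiquinone synthesis genes (Coq2 to Coq7, Coq9 and Pdss2), Cyc1 and Atpif1. The median difference was 0.10 against 0.01 over all genes. At an unadjusted limma p under 0.05 there were 10 of 21 (47.6%, 8 higher and 2 lower), against 17.4% of all genes. The list was chosen with earlier results of these data known, so its shares carry no test. Coq10b, a ubiquinone-binding protein needed for respiration, read 10.37, 10.30, 10.41, 10.09 and 10.32 in WT and 9.50, 9.70, 9.68, 9.66 and 9.84 in KO. Every KO liver lay below every WT liver, and Coq10b fell by 0.62 (SE 0.073, adjusted p = 0.000333), a 1.54-fold decrease.

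Etfdh, the enzyme that passes electrons from fatty acid oxidation to ubiquinone, read 11.62, 11.56, 11.57, 11.66 and 11.61 in WT and 11.91, 11.93, 12.16, 12.01 and 12.00 in KO. It rose 1.32-fold, by 0.40 (SE 0.052, adjusted p = 0.000725). Suox, sulfite oxidase, which feeds cytochrome c, read 11.34, 11.23, 11.07, 11.12 and 11.16 in WT and 11.71, 11.65, 11.52, 11.77 and 11.58 in KO. It rose 1.37-fold, by 0.46 (SE 0.063, adjusted p = 0.000937). In both genes all KO livers lay above all WT livers, and Coq10b, Etfdh and Suox were called under all 18 alternatives run.

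**Figure D4:**
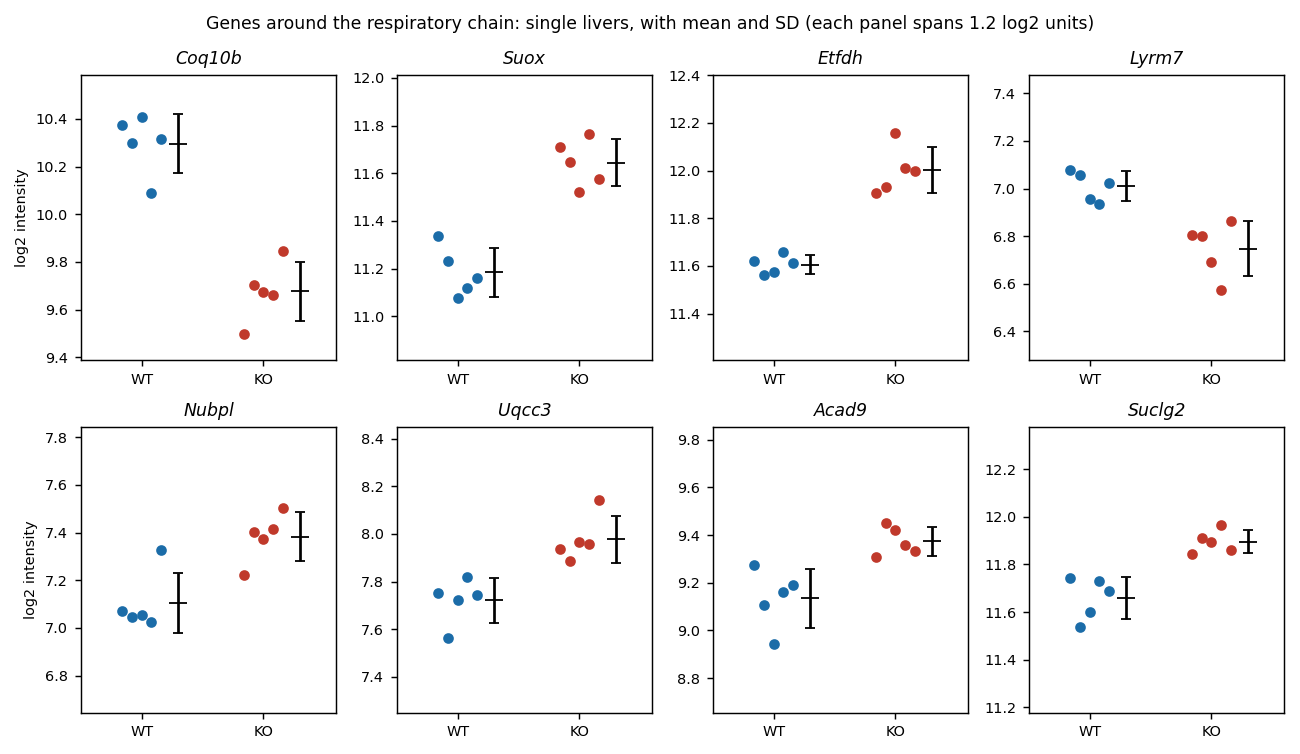
Log2 intensity (vertical axis, 1 scale length in every panel) of 8 called genes around the respiratory chain in each WT and KO liver (points), with mean and SD as bars. The groups do not overlap except in Nubpl, where WT replicate 5 at 7.33 lies among the KO livers.

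Of 35 measured assembly factors outside the symbol rule 3 rose and 1 fell, or 11.4% called against 5.61% of all genes. The median difference was 0.02. At an unadjusted limma p under 0.05 there were 10 of 35 (28.6%, 5 higher and 5 lower), against 17.4% of all genes. This list too was chosen with earlier results known, and its shares carry no test. Lyrm7, a chaperone of the Rieske protein, fell by 0.26 (adjusted p = 0.0225), with 6.93 to 7.08 in WT livers and 6.57 to 6.86 in KO livers. Uqcc3, a factor of complex III, rose by 0.26 (adjusted p = 0.0286). Nubpl, which delivers iron-sulfur clusters to complex I, rose by 0.28 (adjusted p = 0.0336), and Acad9, a factor of complex I, rose by 0.24 (adjusted p = 0.0409). Leaving out single arrays ended these calls. Lyrm7 lost its call without WT replicate 1, 2 or 5 or KO replicate 3 (adjusted p up to 0.0569), and Uqcc3 without WT replicate 2, 3 or 5 or KO replicate 3, 4 or 5 (up to 0.0639). Nubpl kept its call only without WT replicate 5 or KO replicate 1 (otherwise up to 0.0807), and Acad9 only without WT replicate 1 (otherwise up to 0.0993). Over all 18 alternatives the highest adjusted p was 0.0794 for Lyrm7, 0.151 for Uqcc3, 0.236 for Nubpl and 0.0993 for Acad9.

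In the citrate cycle, which supplies NADH and succinate, 1 of 17 measured genes was called (5.88%), about the 5.61% of all genes. The median difference was 0.03. At an unadjusted limma p under 0.05 there were 10 of 17 (58.8%, 6 higher and 4 lower), against 17.4% of all genes. The list was chosen with earlier results of these data known, so its shares carry no test. Suclg2, the GTP-linked subunit of succinyl-CoA synthetase, rose by 0.23 (SE 0.051, adjusted p = 0.018), with 11.54 to 11.74 in WT and 11.84 to 11.96 in KO livers. It had adjusted p = 0.0509 without KO replicate 4 and from 0.00644 to 0.076 over all alternatives. Of 22 regulators of mitochondrial biogenesis and transcription 1 was called (4.55%), below the 5.61% of all genes, with a median of 0.04. At an unadjusted limma p under 0.05 there were 5 of 22 (22.7%, 4 higher and 1 lower). Esrrg, the nuclear receptor ERR gamma, rose by 0.31 (SE 0.076, adjusted p = 0.034), with 7.57 to 7.91 in WT and 7.93 to 8.23 in KO livers. It missed the threshold without WT replicate 1, 2 or 3 or KO replicate 1, 2 or 3, and its adjusted p ran from 0.0157 to 0.0855 over all alternatives. The coactivator Ppargc1a differed by 0.12 (adjusted p = 0.758).

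Only 2 of 13 mitochondrially encoded subunits had a probe set of a single symbol. ND3 of complex I differed by -0.05 (95% interval -0.14 to 0.05) and COX2 of complex IV by -0.01 (95% interval -0.10 to 0.09). Neither was called by limma (adjusted p = 0.688 and 0.973), nor did either have an unadjusted p under 0.05.

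The probe set chosen for a gene mattered in several places. Of the 89 members 17 had several probe sets, and 113 probe sets were measured in all. A dimmer set of Atp5g1 differed by -0.26 (adjusted p = 0.0831, tested among all probe sets), where the brightest differed by -0.01. The dimmest set of Atp5g2 differed by -0.24 (adjusted p = 0.0729), where the brightest differed by 0.04. The second set of Ndufs3 differed by 0.16 and the brightest by 0.02. The dimmest set of Atp5h, at a 10-array mean of 5.00, differed by 0.24 and the brightest by 0.01. For Ndufab1, Atp5md and Cox7a2l the dimmest set differed by -0.12, -0.11 and 0.15, and the brightest by 0.01, 0.03 and 0.08. Which transcript or gene copy each set reads was not tested. The 6 probe sets that paired a symbol of the rule with another symbol, of Cox7c, Ndufb4 and Ndufs5, stayed outside the rule. None was called by limma, and 1, of Ndufs5, had an unadjusted p under 0.05.

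Array medians ranged from 7.28 to 7.37. Signal for Nr1d1 itself, from 1 probe set, was 9.78 ± 0.16 on arrays labelled WT and 9.92 ± 0.45 on arrays labelled KO (SD, n = 5 each, adjusted p = 0.803). It thus did not tell the labels apart, and the sources used here do not say whether it covers the deleted part. Arntl, a clock gene repressed by Rev-erb alpha, was higher in KO by 2.13 (adjusted p = 3.2e-06). Of 8 hepatocyte markers 0 were called (0 at an unadjusted limma p under 0.05), with a summed intensity of 101911 to 103945 in WT and 100806 to 104055 in KO. Of 42 measured markers of other cell types 1 was called, the cholangiocyte marker Sox9, and 6 had an unadjusted p under 0.05. Over all genes the shares were 5.61% and 17.4%. The 6 stellate markers had a median difference of -0.01, with 2 at an unadjusted limma p under 0.05. The 5 measured leukocyte markers had a median difference of 0.04, with 1. The 6 endothelial markers had a median difference of 0.16, with 2 at an unadjusted p under 0.05 and a summed intensity of 5708 to 7207 in WT and 6244 to 7731 in KO. The 5 measured cholangiocyte markers, 1 of them under the lower quartile, had a median difference of -0.007. Only Sox9 among them had an unadjusted limma p under 0.05. Their summed intensity was 624 to 720 in WT and 741 to 945 in KO. The part of these shifts in the gene values above was not tested.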

How the data were processed

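Liver RNA of 5 WT and 5 KO mice was hybridized by itself to 1 array per mouse. The authors deposited normalized intensities of 27541 probe sets on a linear scale (8.93 to 18280). Per the submitters' processing notes the tools were RMA and Partek. Here log2 was taken, with no further scaling. Only the 21631 probe sets with 1 symbol in the array annotation were used, the one of highest mean per gene, giving 19933 genes. KO and WT were compared in limma 3.58.1, R 4.3.3 (lmFit and eBayes, two-sided, no covariates), with Benjamini-Hochberg adjustment over all genes, and the threshold was 0.05. The script was tested on simulated data. The number of arrays limits the precision.

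The members, role groups and related lists were chosen with earlier results of these data known, so lists carry no test. Genes named were every called member, the 3 of smallest p in each complex and among assembly factors, the member of widest spread per genotype, the isoform list, called genes of related lists (or the 2 of smallest p), Nr1d1 and Arntl, with other names chosen after their values were seen. Alternatives were the mean of probe sets, every probe set, no dim genes, centred medians, quantile normalization, array weights, a trend and robust prior, and leaving out each array or the 3 of widest interquartile range.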

Additional observations from a re-analysis of the deposited data

Results flagged for a closer look

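Within a group of 5 livers, 1 array stood far from the other 4 in several named genes (log2 intensity), with a gap past Dixon's 95% critical value. Ndufs6 read 9.80 in WT replicate 5 and 10.31 to 10.37 in the other WT livers. Cox8c read 7.12 in WT replicate 1 and 7.35 to 7.38 in the others, and Cox6b2 read 6.61 in the same array and 6.86 to 6.95 in the others. Cox6a1 read 11.16 in WT replicate 3 and 11.28 to 11.31 in the others. Atp5l read 10.57 in KO replicate 4 and 10.73 to 10.79 in the others. Outside the members, Nubpl read 7.33 in WT replicate 5 and 7.02 to 7.07 in the others, and COX2 read 13.35 in WT replicate 2 and 13.44 to 13.46 in the others. Over all members 9 of 178 groups passed the critical value (5.06%), about the 1 in 20 that chance gives.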

How the results depend on the processing

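Under quantile normalization 3 members were called higher, with 2 called among complex I genes and 2 among assembly and related factors. No member was called (0 lower, and 0 among assembly and related factors) with array medians centred, with array weights, or without the 3 arrays of widest interquartile range. Leaving out each array gave 0 to 1 members called lower and 0 to 1 among assembly and related factors. Over all genes those alternatives called 527 to 1254 genes. The median member difference ran from 0.00624 to 0.0299, that of complex I from 0.00972 to 0.0325, that of complex II from 0.0776 to 0.0976 and that of complex III from 0.00828 to 0.044. That of complex IV ran from -0.03 to 0.01 and that of complex V from -0.02 to 0.01, with the other sign in 3 alternatives (without KO replicate 4, WT replicate 5, or the 3 arrays) and 5 (array weights, or without KO replicate 3 or WT replicate 1, 2 or 3) of 18. Of 37 named genes not called, 10 changed sign in some alternative. The causes were not tested. No paired analysis was possible because the labels give no replicate numbers that pair WT with KO livers.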
